A study of Arabidopsis thaliana with 15 samples.

Results

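A set of 73 genes, of the 14532 genes counted in roots of Arabidopsis thaliana seedlings, was high at 1 h of hydrogen peroxide (H2O2) and lower again at 3 h. These transient risers were chosen by their measured levels. Counts were divided by the library's total and scaled to the usual unit, CPM, then averaged over 3 libraries, and L, the log2 ratio of 2 group means after adding 2 CPM to each, was taken. A member had a mean of at least 10 CPM at 1 h of H2O2, an L of at least 1 against water, and an L of at most -0.8 for 3 h against 1 h. The first 2 criteria alone held 396 genes, and the other 323 of these are called the other risers below. Levels at 1 h, at 3 h and in water are therefore described without a test, and only the comparison of H2O2 with RB against H2O2 alone, both at 2 h, is tested.

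Hydrogen peroxide is a reactive oxygen species that plant cells make and remove, and at raised levels it is both a stress and a signal that changes the transcription of many genes. Early stress responses of plants often include transcripts that peak within the first hours and then return, among them those of transcription factors, ubiquitin ligases and hormone enzymes. In roots, H2O2 is known from wall cross-linking by peroxidases, from growth control and from responses to drought, salt and pathogens.

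All plants were wild type, ecotype Columbia-0, 7 d old, and root RNA was counted with MARS-seq, a method that tags the 3′ ends of messenger RNA. The 5 treatments had 3 libraries each, written a, b and c, and each library came from a pool of 30 to 50 seedlings whose roots were parted from the shoots afterwards. Roots were taken after 1 h, 2 h or 3 h in 5 mM H2O2, after 2 h in 5 mM H2O2 with 10 µM RB, and after 1 h in water. RB, also written MRB, is taken to be Rose Bengal from the title of the series; this dye makes singlet oxygen in light. Water libraries carry time 0 in their titles and 1 h in their treatment field, and which of these holds is not settled here. At 2 h and 3 h the time in solution differs from the control as well as the agent, and the effects cannot be told apart. If the titles hold, the same is true at 1 h, and so of the rise that chose the members. RB without H2O2 was not analysed here. Total counts ran from 689372 (H2O2 1 h c) to 6231140 (H2O2 with RB c). Of 9 root marker genes, 8 were in the table, and their summed level was 896 to 1001 CPM at 1 h, 818 to 1036 CPM at 2 h, 659 to 738 CPM at 3 h, 573 to 853 CPM with RB and 1335 to 1390 CPM in water. These sums include the member PYK10. Casparian strip gene CASP1 averaged 290 to 401 CPM over the groups. The root aquaporin gene TIP2;3 averaged 809 CPM in water, 464 CPM at 1 h, 380 CPM at 2 h, 318 CPM at 3 h and 177 CPM with RB. The root hair gene COBL9 averaged 1.79 CPM at 1 h against 7.81 CPM in water, and EXPA7, another, 8.10 CPM against 60.4 CPM. The summed level of 8 shoot markers was 169 to 343 CPM in 14 libraries, highest of these in H2O2 1 h b, and 554 CPM in H2O2 with RB c. The part of root marker and shoot marker levels in the results below was not tested, and RNA from whole roots cannot tell fewer cells of a type from less RNA per cell.

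One member, AT3G43850, varied so much between replicate libraries that sums over members are given with and without it. It encodes an uncharacterised protein of 189 residues (chr3:15702085-15704391, - strand in the RefSeq annotation of TAIR10.1) and was the member with the highest mean at 1 h. It had 1498, 5.91 and 169.8 CPM in water, 2497, 624 and 3548 CPM at 1 h of H2O2, 489, 255 and 377 CPM at 2 h and 506, 3.94 and 702 CPM at 3 h, and 28.7, 1474 and 39.96 CPM in H2O2 with RB. Libraries of one treatment thus differed widely in water, at 3 h and with RB, and the 1 h libraries overlapped those of water and of 3 h while all lying above those of 2 h. The summed level of all 73 members was 9756, 6840.0 and 10093 CPM at 1 h, against 3344, 2174 and 2725 CPM in water. Without AT3G43850 the sums were 1846, 2168 and 2555 CPM in water, 7260, 6216 and 6545 CPM at 1 h, 4738, 4713 and 3720.0 CPM at 2 h, and 3310.1, 2654 and 2125 CPM at 3 h. With RB they were 4089, 4009 and 3462 CPM. By these sums every 1 h library lay above every 2 h library, every 2 h library above every 3 h library, and only the 3 h library c below any water library.

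The members had a median L of 1.39 at 1 h against water (range 1.01 to 3.51) and the 3 h level lay below the 1 h level by a median L of -1.25 (range -3.79 to -0.83), both of which the rule fixed in direction. Most members were of modest level, with 42 below 30 CPM, 13 from 30 to 100 CPM and 18 at 100 CPM or more at 1 h. All 3 libraries at 1 h lay above all 3 in water for 62 members (11.9% of the 9986 genes tested did), and all 3 libraries at 3 h lay below all 3 at 1 h for 61 members (18.3% of genes tested). The rule itself favours both counts. Values between replicates at 1 h were uneven. The highest of the 3 libraries was a median of 1.75 times the lowest, at least 3 times the lowest in 13 members, and under 1.5 times the lowest in 21. The shallowest library, c, held the lowest of the 3 values for 35 members, b for 25 and a for 13. Library c also held the highest value for 26 members, a for 29 and b for 18. Without H2O2 1 h c the rule found 113 genes, 59 of them among the 73, so that library bears on which genes are members.

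**Figure D1:**
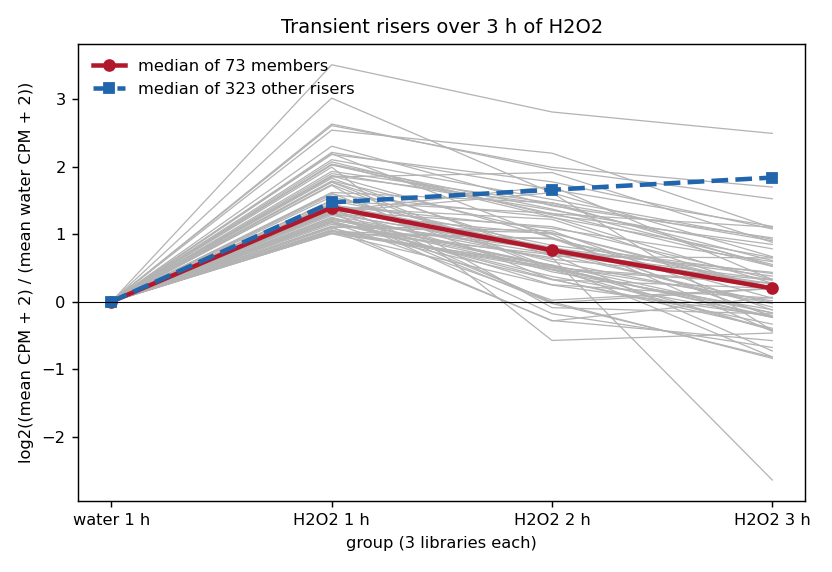
Log2 ratio of each group mean to the water mean, after adding 2 CPM, for the 73 transient risers (grey lines), their median (red circles) and the median of the 323 other risers at 1 h (blue squares, dashed), each mean over 3 libraries. The members' median was 1.39 at 1 h, 0.76 at 2 h and 0.20 at 3 h, while that of the other risers went on to 1.84 at 3 h. The rule parted the 2 sets by their level at 3 h against 1 h, so their contrast at 3 h is built into the choice.

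The 2 h libraries did not enter the rule and showed where the members stood on the way down. The 2 h mean lay between the 3 h and 1 h means for 66 of 73 members and below the 1 h mean for 70. The median L of 2 h over 1 h was -0.66 (range -2.57 to 0.36), beside -0.06 over all 6479 genes of at least 10 CPM at 1 h and 0.17 over the other risers. Because the 1 h libraries chose the members and set them apart from the other risers, a lower level at 2 h is in part built into the choice. As a share of the rise at 1 h, a median of 43.4% was left at 2 h in members (quartiles 23.5% and 59.6%) and 120.0% in the other risers. The share left at 3 h, a median of 8.17% in members, was limited by the rule. All 3 libraries at 2 h lay below all 3 at 1 h for 32 members (6.18% of genes tested), and above all 3 in water for 40 members (12.4% of genes tested). The 2 h mean lay above the 1 h mean in 3 members, the efflux carrier gene AT5G52050, the polyubiquitin gene UBQ13 and the F-box gene FBS1, which are described with their groups below.

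At 3 h most members were back near the water level. The water, 1 h and 3 h levels all entered the rule. It required a rise from water and then a fall, so this nearness is in part built into the choice. The L of 3 h over water had a median of 0.20 (range -2.64 to 2.49), beside -0.28 over all genes tested, and lay within 0.5 of 0 for 45 members. Their 3 h mean was above the water mean in 45 members and below it in 28. Scaling with TMM factors raised the median over all genes tested to -0.06 and that of the members to 0.37, with 54 members above and 19 below. All 3 libraries at 3 h lay above all 3 in water for 14 members (14.9% of genes tested). Of the 7 members whose L was still at least 1, the sulfur assimilation gene APS3 (2.49) and the protease gene AT5G48430 (1.70) were highest, and the chloroplast beta-amylase gene BAM3 (AT4G17090, also CT-BMY) followed at 1.52. The single member with an L of -1 or less was AT1G56660.

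**Figure D2:**
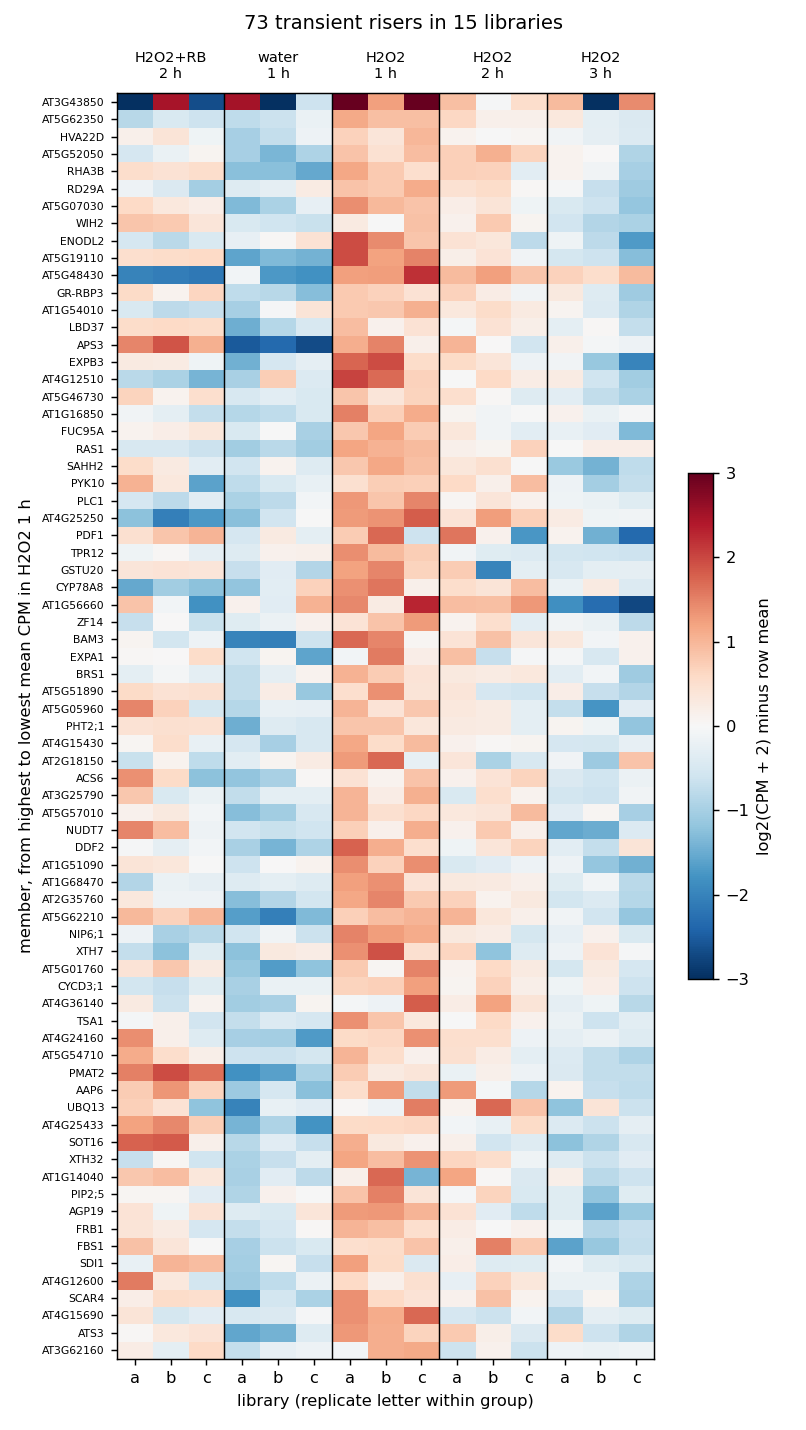
Log2(CPM + 2) minus the gene's mean over 15 libraries for the 73 members (rows, from the highest to the lowest mean at 1 h) in each library (columns, grouped by treatment, replicates a to c). Red is above and blue below the gene's mean; the H2O2 1 h columns are mostly red, and the top row, AT3G43850, alternates between red and blue within several groups.

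Cell wall genes formed the broadest group of members. The 13 of them encode proteins that loosen, cross-link or decorate the wall, or the enzymes that act on its polymers, and were put together by function after the members were known. A median of 30.9% of their 1 h rise was left at 2 h, and their median L at 3 h against water was -0.12. The most abundant, AT5G62350, encodes a protein of the family that inhibits invertases and pectin methylesterases, the enzymes that trim pectin. It had 246, 267 and 362 CPM in water, 918, 786 and 785 CPM at 1 h of H2O2, 643, 460.1 and 464 CPM at 2 h and 522, 339 and 309 CPM at 3 h. All 1 h libraries were above all others, and the 3 h libraries b and c lay within the range of water. Its relative AT4G25250, of the same inhibitor family, had 6.55, 11.6 and 18.04 CPM in water, 47.5, 49.9 and 69.6 CPM at 1 h of H2O2, 25.2, 46.7 and 31.3 CPM at 2 h and 22.3, 16.5 and 17.05 CPM at 3 h. Its 1 h libraries were all above the 2 h libraries, and 1 of the 3 h libraries lay above the highest in water.

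Expansins slip wall polymers past each other during growth. The beta-expansin gene EXPB3 (AT4G28250) had 16.1, 32.7 and 38.5 CPM in water, 163, 187 and 69.6 CPM at 1 h of H2O2, 70.8, 61.3 and 42.3 CPM at 2 h and 43.4, 20.4 and 10.5 CPM at 3 h, a rise of L 2.19 and a return of L -2.41. Libraries a and b at 1 h stood above all others, and library c at 1 h overlapped those at 2 h. The alpha-expansin gene EXPA1 (AT1G69530) had 15.2, 51.7 and 18.9 CPM at 1 h against 10.04, 17.1 and 4.10 CPM in water, with library b far above the rest. Of a pair of xyloglucan endotransglucosylase/hydrolase genes, which cut and rejoin xyloglucan, XTH32 (AT2G36870) had 12.5, 10.3 and 14.5 CPM at 1 h against 1.31, 1.97 and 3.28 CPM in water without overlap. XTH7 (AT4G37800) had 20.6, 30.9 and 10.2 CPM at 1 h against 1.75, 8.67 and 8.20 CPM in water, and was at 11.8, 1.83 and 4.70 CPM by 2 h.

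A pair of genes for arabinogalactan-type surface proteins had the lowest L of 3 h over water among the wall genes, -0.84 and -0.82. The early nodulin-like gene ENODL2 (AT4G27520) had 84.2, 103 and 137 CPM in water, 397, 271 and 179.9 CPM at 1 h of H2O2, 138, 128 and 57.9 CPM at 2 h and 91.9, 57.3 and 29.4 CPM at 3 h. Its level at 2 h overlapped water, and 2 of the 3 libraries at 3 h were below every water library. The arabinogalactan protein gene AGP19 (AT1G68725) had 12.5, 12.8 and 10.2 CPM at 1 h against 2.62, 2.37 and 5.74 CPM in water, and 2.70, 0 and 0.775 CPM at 3 h, where a count of 0 in library b allows up to 1.07 CPM (3 counts). PDF1 (AT2G42840), a marker of the outermost cell layer, ranged from 16.0 to 89.1 CPM among the 1 h libraries and overlapped water. The other 4 wall members, the fucosidase gene FUC95A, the glycine-rich protein gene AT5G46730, the exostosin family gene AT1G68470 and the O-fucosyltransferase family gene FRB1, had an L of 1 h over water of 1.05 to 1.42.

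Proteases were 4 members, and the 3 of the aspartyl protease family had an L of 1 h over water of 1.86 to 3.01. AT5G19110 had 23.1, 27.99 and 26.2 CPM in water, 288, 171 and 207 CPM at 1 h of H2O2, 82.6, 97.9 and 68.1 CPM at 2 h and 50.2, 46.9 and 29.1 CPM at 3 h. Its rise, L 3.01, left 29.1% at 2 h, and all 3 libraries of each time were separate from those of the time before. AT5G07030 had 62.4, 82.00 and 134 CPM in water, 423, 314 and 290.1 CPM at 1 h of H2O2, 183, 211 and 147 CPM at 2 h and 115, 103 and 70.5 CPM at 3 h, and at 3 h its libraries overlapped those of water. AT5G48430 had 61.1, 18.5 and 17.2 CPM in water, 155, 159 and 306 CPM at 1 h of H2O2, 128, 156 and 118 CPM at 2 h and 106, 94.2 and 127 CPM at 3 h. Library c at 1 h was far above the others, and unlike most members all 3 libraries at 3 h were still above all 3 in water, at 44.02% of the rise. The fourth, the carboxypeptidase gene BRS1, known from brassinosteroid signalling, had an L of 1 h over water of 1.02.

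Lipid-transfer type and embryo-specific type genes added 4 members. AT4G12510, of the lipid-transfer family of small secreted proteins, had 18.8, 66.4 and 28.7 CPM in water, 165, 129.9 and 63.8 CPM at 1 h of H2O2, 38.7, 60.4 and 45.4 CPM at 2 h and 46.3, 25.1 and 17.8 CPM at 3 h, and library c at 1 h overlapped water. Its mRNA is 93.3% identical to that of AT4G12520 over 660 bases, so reads of the pair may have been split in the counting. AT5G62210, of the embryo-specific ATS3 family, had 19.7, 23.1 and 24.7 CPM at 1 h against 2.18, 1.18 and 3.28 CPM in water, and 74.6% of its rise was left at 2 h. AT5G05960 shares 455 identical mRNA bases with AT5G05950, an overlapping gene on the same strand, and its counts are uncertain for that reason.

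Redox enzymes kept the smallest median share of their rise among the 13 functional groups. The 5 members, a pair of class III peroxidase genes, which act on H2O2 in the wall, a glutathione transferase, a glutaredoxin-type gene and a nudix hydrolase, had a median of 13.7% left at 2 h. Their shares ran widely, from -15.6% in the peroxidase gene AT2G18150 to 67.4% in the nudix hydrolase gene NUDT7. The gene of the thioredoxin superfamily AT4G15690 had 1.31, 1.38 and 2.46 CPM in water, 9.86, 7.84 and 13.1 CPM at 1 h of H2O2, 1.22, 0.915 and 2.35 CPM at 2 h and 0.490, 1.79 and 1.55 CPM at 3 h. Its 1 h libraries stood above all others, and those of 2 h and 3 h overlapped water. Each of its 2 h libraries held at most 3 counts. The glutathione transferase gene GSTU20 (AT1G78370) had 41.2, 49.9 and 27.6 CPM at 1 h against 9.60, 12.8 and 8.20 CPM in water, and its 2 h libraries, at 29.7, 2.74 and 13.3 CPM, lay on both sides of the water range. The peroxidase gene AT2G18150, whose mRNA is 91.7% identical to that of AT2G18140 over 1017 bases, had 28.7, 40.3 and 8.70 CPM at 1 h and overlapped water at 8.29, 11.4 and 13.1 CPM. NUDT7 (AT4G12720), a hydrolase known to limit defence responses, had 25.1, 16.6 and 33.4 CPM at 1 h against 9.16, 8.48 and 9.02 CPM in water and 3.68, 3.94 and 10.5 CPM at 3 h.

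Genes of abscisic acid, cold and drought responses included some of the most abundant members. RD29A (AT5G52310, also LTI78) is a standard marker of cold, drought and salt and has several drought-responsive elements (DRE) in its promoter, bound by DREB/CBF factors. It had 145, 160.0 and 228 CPM in water, 348, 334 and 421 CPM at 1 h of H2O2, 265, 282 and 196 CPM at 2 h and 188, 119 and 90.3 CPM at 3 h. All 3 libraries at 1 h were above all others, and 2 of 3 at 3 h were below every water library. HVA22D (AT4G24960), an abscisic acid-induced gene for a membrane-shaping protein of the endoplasmic reticulum, had 202, 246 and 363 CPM in water, 647, 516 and 812 CPM at 1 h of H2O2, 435, 399.7 and 421 CPM at 2 h and 376, 335 and 301 CPM at 3 h. The 1 h libraries were again above the rest of the time course, and 3 h lay within the water range or just above it. RAS1 (AT1G09950), a negative regulator of salt tolerance, had 76.2, 69.4 and 65.3 CPM at 1 h against 14.8, 17.7 and 14.8 CPM in water, and 32.6, 37.9 and 37.97 CPM at 3 h, so it stayed above water throughout.

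The 250 bases before the annotated start are shown for 2 of the members that hold at least 2 copies of the DRE core, CCGAC, in this stretch, because RD29A is the textbook target of this element. Sequences run 5′ to 3′ on the coding strand and come from RefSeq TAIR10.1. They lie on the + strand at chr5:21240467-21240716 (RD29A) and chr1:18932516-18932765 (AT1G51090, of the heavy metal transport/detoxification superfamily). Capitals mark the DRE core on either strand, which reads GTCGG where it lies on the opposite one.
RD29A: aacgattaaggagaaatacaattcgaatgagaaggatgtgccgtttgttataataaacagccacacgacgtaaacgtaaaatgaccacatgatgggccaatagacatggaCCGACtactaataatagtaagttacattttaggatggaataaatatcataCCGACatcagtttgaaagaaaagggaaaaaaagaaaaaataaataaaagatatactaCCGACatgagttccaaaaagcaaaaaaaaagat
AT1G51090: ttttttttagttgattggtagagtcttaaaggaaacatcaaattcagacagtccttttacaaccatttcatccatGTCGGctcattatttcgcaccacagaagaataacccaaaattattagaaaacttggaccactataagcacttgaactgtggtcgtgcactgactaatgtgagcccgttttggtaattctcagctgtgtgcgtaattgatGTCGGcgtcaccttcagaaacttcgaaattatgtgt
RD29A holds 3 copies in these bases and AT1G51090 holds 2. AT1G51090 had 5.67, 9.86 and 10.7 CPM in water, 28.7, 17.02 and 29.01 CPM at 1 h of H2O2, 6.51, 7.32 and 8.61 CPM at 2 h and 8.58, 3.22 and 2.33 CPM at 3 h; its 1 h libraries were above all others, and at 2 h it was already within the range of water. At 2 h RD29A had 36.7% of the rise left, and AT1G51090, at -7.72%, was below its water mean.

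In the window from 250 bases before to 50 bases after the start, the DRE core stood in 19 of 73 members (26.0%), in 16.8% of 321 other risers and in 16.3% of 14175 protein-coding genes of the table. The W box, TTGACC or TTGACT and bound by WRKY factors, stood in 39.7% of members, 46.1% of other risers and 32.7% of all. The G box, CACGTG, stood in 4.11% of members, 13.7% of other risers and 9.09% of all. The site II element, TGGGCC, stood in 5.48%, 11.2% and 19.3% in the same order, and the heat shock element core, GAANNTTC, in 12.3%, 17.1% and 11.1%. CGCGTT, bound by CAMTA factors, stood in 5.48%, 5.61% and 3.82%. The GCC box, GCCGCC, stood in 0 of 73 members, 4.05% of other risers and 2.77% of all. Both strands were searched, motifs that overlap were each counted, and a match describes letters only.

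**Figure D3:**
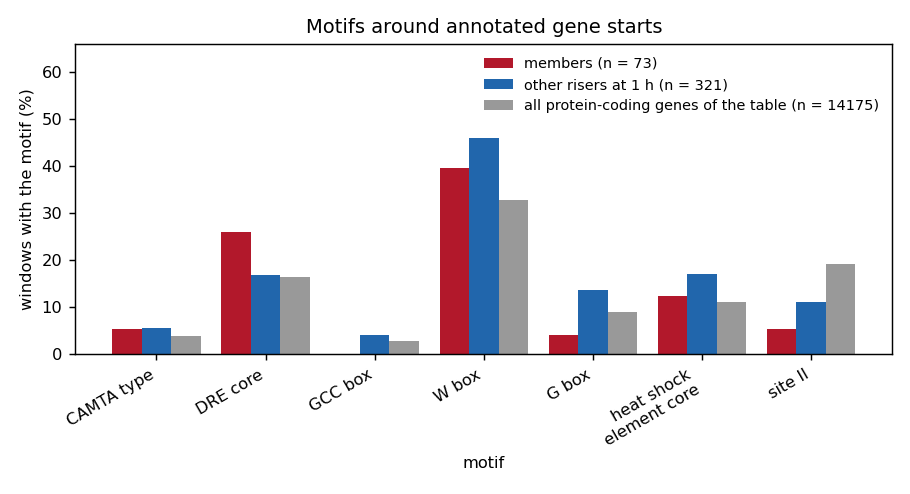
Share of start windows (250 bases before to 50 after the annotated start, both strands) that hold each motif, for the members (red, n = 73), the other risers at 1 h (blue, n = 321) and all protein-coding genes of the table (grey, n = 14175). The DRE core stood in 26.0% of members and 16.3% of all, and the site II element in 5.48% of members and 19.3% of all.

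Transcription factors were 3 members. DDF2 (AT1G63030), a DREB-type factor of the CBF subgroup, had 3.93, 2.37 and 4.10 CPM in water, 37.6, 22.6 and 14.5 CPM at 1 h of H2O2, 8.55, 12.8 and 16.4 CPM at 2 h and 7.35, 5.01 and 13.2 CPM at 3 h. All 1 h libraries were above all in water, the 1 h library c overlapped those at 2 h, and all 3 libraries at 3 h still exceeded water. LBD37 (AT5G67420), a repressor of nitrogen-responsive and anthocyanin genes, had 203, 115 and 144 CPM at 1 h against 37.1, 56.96 and 74.6 CPM in water, and 101, 144 and 119.8 CPM at 2 h, overlapping 1 h. The Myb-like gene AT3G25790 had an L of 1.24 at 1 h over water and was at 8.58, 8.23 and 12.4 CPM at 3 h, about the level of water at 7.42, 10.8 and 10.7 CPM.

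Signalling and protein turnover genes kept the largest median share of their rise at 2 h among the 13 groups, 83.4% over 8 members. RHA3B (AT4G35480), a RING-type ubiquitin ligase gene, had 103, 103 and 84.5 CPM in water, 554, 428 and 352 CPM at 1 h of H2O2, 408, 401 and 197 CPM at 2 h and 267, 229 and 122 CPM at 3 h. Its 1 h and water libraries were far apart, 2 h overlapped 1 h, and every 3 h library was above water. ACS6 (AT4G11280), which encodes an enzyme of the step that commits to ethylene synthesis, had 6.55, 7.88 and 18.04 CPM in water, 24.2, 19.04 and 33.4 CPM at 1 h of H2O2, 19.1, 23.8 and 28.96 CPM at 2 h and 12.5, 10.7 and 15.1 CPM at 3 h, and 2 h lay within the 1 h range. FBS1 (AT1G61340), a stress-induced F-box gene, had 2.18, 3.35 and 4.10 CPM in water, 9.86, 10.3 and 13.1 CPM at 1 h of H2O2, 7.33, 21.95 and 12.5 CPM at 2 h and 0.735, 1.79 and 3.10 CPM at 3 h, with its highest value at 2 h and with 3 h within or below the range of water. UBQ13 (AT1G65350) had 8.07, 6.72 and 26.1 CPM at 1 h and 8.55, 30.2 and 15.7 CPM at 2 h, with wide spread at both times. An annotated gene overlaps UBQ13 on the same strand, so its counts are uncertain too. PLC1 (AT5G58670), a phosphoinositide-specific phospholipase C gene, kept the smallest share of the group, 27.8%, and had 60.9, 43.5 and 68.2 CPM at 1 h, 24.4, 31.1 and 25.8 CPM at 2 h and 21.3, 20.4 and 17.8 CPM at 3 h. AT5G01760, with ENTH/VHS/GAT domains of vesicle sorting proteins, had an L of 1 h over water of 2.21, and AT5G57010, a calmodulin-binding family gene, of 1.62.

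Transport genes were 8 members with a range of courses. AT5G52050 encodes the MATE carrier DTX50, known to export abscisic acid, and had 137, 105 and 143 CPM in water, 501, 378 and 522 CPM at 1 h of H2O2, 449, 577 and 439 CPM at 2 h and 294, 276 and 145 CPM at 3 h. The 2 h libraries overlapped those at 1 h and reached above them, and at 3 h all 3 libraries were above the highest in water, library c by a small margin. The boric acid channel gene NIP6;1 (AT1G80760) was already low at 2 h, with 25.1, 21.1 and 18.9 CPM at 1 h but 9.77, 9.15 and 4.70 CPM at 2 h. The amino acid permease gene AAP6, the phosphate exporter family gene AT1G14040, the aquaporin gene PIP2;5 and the plastid phosphate transporter gene PHT2;1 had an L of 1 h over water of 1.19 to 1.49. For AT1G14040 the 1 h libraries held 8.07, 27.8 and 1.45 CPM, with library b far above the rest.

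Sulfur use gave 3 members, including the one with the largest rise. APS3 (AT4G14680) encodes an ATP sulfurylase, which activates sulfate, and had 11.3, 13.01 and 9.84 CPM in water, 159, 209 and 82.7 CPM at 1 h of H2O2, 151, 75.01 and 49.3 CPM at 2 h and 82.3, 70.9 and 66.6 CPM at 3 h. All H2O2 libraries were far above all in water, and 3 h was still at 44.6% of the rise. SOT16 (AT1G74100), a sulfotransferase of glucosinolate synthesis, had 18.8, 10.1 and 8.70 CPM at 1 h against 3.49, 5.72 and 4.10 CPM in water. SDI1 (AT5G48850), a sulfur deficiency-induced gene that restrains glucosinolate synthesis, had 17.9, 10.8 and 4.35 CPM at 1 h against 2.18, 6.90 and 3.28 CPM in water, with overlap.

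Metabolic and endoplasmic reticulum (ER) body genes made up 9 members. PYK10 (AT3G09260), the main beta-glucosidase of root ER bodies, had 24.9, 31.1 and 36.9 CPM in water, 61.8, 74.4 and 72.5 CPM at 1 h of H2O2, 66.3, 48.5 and 83.8 CPM at 2 h and 38.7, 20.4 and 25.6 CPM at 3 h. The 2 h libraries overlapped those at 1 h, and 3 h overlapped water. TSA1 (AT1G52410), an ER body protein gene, and AT1G54010, a GDSL lipase-like gene, had an L of 1 h over water of 1.44 and 1.01. SAHH2 (AT3G23810), an S-adenosylhomocysteine hydrolase of the methyl cycle, had 22.7, 37.6 and 26.2 CPM in water, 62.7, 79.96 and 66.7 CPM at 1 h of H2O2, 44.8, 49.4 and 34.4 CPM at 2 h and 14.9, 11.8 and 19.8 CPM at 3 h, and all 3 h libraries were below all in water. BAM3, a beta-amylase of starch breakdown known to respond to cold, had 41.2, 34.3 and 11.6 CPM at 1 h against 1.31, 1.18 and 6.56 CPM in water. PMAT2 (AT3G29670), a malonyltransferase of phenolic glucosides, had 1.31, 1.77 and 4.10 CPM in water, 17.9, 12.1 and 13.1 CPM at 1 h of H2O2, 8.14, 10.98 and 8.61 CPM at 2 h and 6.62, 5.01 and 5.04 CPM at 3 h, with every H2O2 library above water. AT4G24160, known as a soluble lysophosphatidic acid acyltransferase, had 11.6, 12.1 and 21.8 CPM at 1 h against 2.62, 2.56 and 0.820 CPM in water.

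Among the remaining members AT1G56660, which carries only a domain name in RefSeq, had the lowest L of 3 h over 1 h of all members, -3.79. It had 12.7, 8.48 and 25.4 CPM in water, 34.1, 13.9 and 62.4 CPM at 1 h of H2O2, 23.2, 22.9 and 30.5 CPM at 2 h and 1.72, 0.716 and 0 CPM at 3 h. The level at 2 h was within the range of 1 h, and at 3 h all 3 libraries lay below every library of water, 1 h and 2 h, where the count of 0 in library c allows up to 1.16 CPM. WIH2 (AT2G41420), a small proline-rich protein gene known from ovule development, had 175, 160.4 and 152 CPM in water, 296, 240.1 and 449.7 CPM at 1 h of H2O2, 264, 418 and 258 CPM at 2 h and 163, 131 and 125 CPM at 3 h, with 2 h overlapping 1 h. The D-type cyclin gene CYCD3;1 (AT4G34160), which promotes entry into the cell cycle, had 15.2, 15.7 and 23.2 CPM at 1 h against 3.49, 7.49 and 7.38 CPM in water. AT4G34150 overlaps CYCD3;1 on the same strand, so its counts are uncertain for that reason. The actin regulator gene SCAR4, the RNA-binding protein gene GR-RBP3 and the L7Ae-type ribosomal gene AT4G12600 had an L of 1 h over water of 1.87, 1.58 and 1.04.

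**Figure D4:**
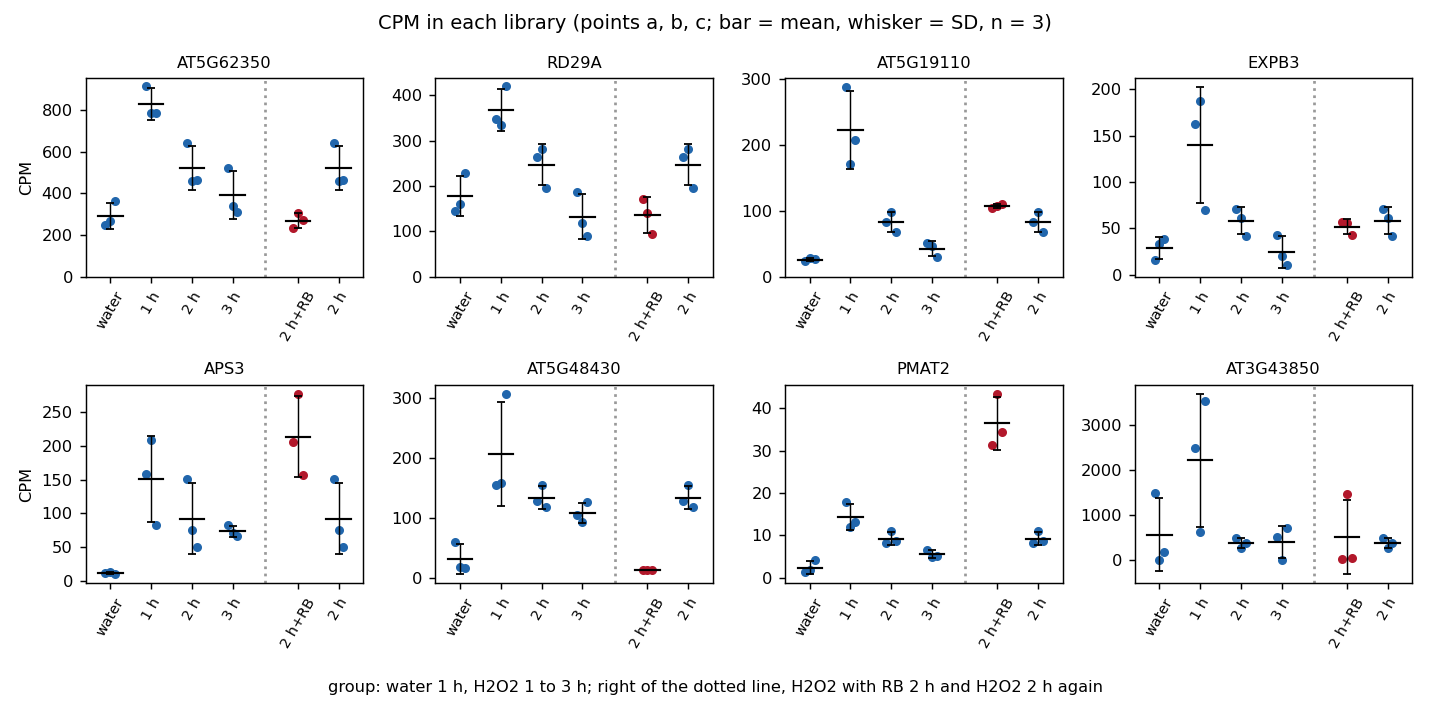
CPM in each library (points, replicates a to c from left to right), with mean (bar) and SD (whisker, n = 3), for 8 members, in water and at 1, 2 and 3 h of H2O2; right of the dotted line H2O2 with RB (red) stands beside H2O2 alone at 2 h, drawn again. Axes start at or below 0 and differ between panels. AT5G48430 lay at 13.2 to 14.7 CPM with RB, PMAT2 at 31.3 to 43.4 CPM.

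Of the 282 genes of the stress, hormone and marker lists in the table, 49 were risers and 5 were members. That is 1.77% of the list genes and 10.2% of their risers, beside 0.502% of all 14532 genes and 18.4% of all 396 risers. Of 35 DREB and ERF factors in the table, 25 reached 10 CPM at 1 h, 9 of these were risers and 1, DDF2, was a member. Of 18 heat shock proteins, 12 were risers and 0 members, and their median L of 3 h over 1 h was 2.11. Of 16 heat shock factors, 4 were risers and 0 members, and of 12 NAC factors likewise 4 and 0. The WRKY factors had 19 genes in the table, 2 risers and 0 members, and the zinc finger factors 12 genes, 2 risers and 0 members. Jasmonate synthesis and turnover had 17 genes, 5 risers and 0 members. ACS6 was the 1 riser and 1 member of 8 ethylene genes, RHA3B was 1 of 2 risers among 10 stress ubiquitin ligases, RD29A was 1 of 3 risers among 14 abscisic acid and cold output genes, and PYK10 was the 1 riser of 8 root markers. The remaining 12 of 23 lists held 0 members each.

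At the edges of the rule, levels on both sides were close. AT3G62160 and ATS3 were just inside the minimum level, at 10.03 and 10.1 CPM, and GSTU1 and GTR1 just outside, at 9.88 and 9.66 CPM. WIH2 and ZF14 were just inside the rise of 1 h over water, each at an L of 1.01, and AT3G57500 and AT1G23460 just outside, at 0.996 and 0.991. AT4G12600 and LBD37 were just inside the return of 3 h over 1 h, each at an L of -0.83, and TSD2 and ACT11 just outside, at -0.797 and -0.79.

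The comparison of H2O2 with RB against H2O2 alone at 2 h asks how the members stood when RB was added. Neither of these groups entered the choice of members, but the fit takes its estimate of the spread from all 15 libraries, those that chose the members included. With RB the members lay on both sides of H2O2 alone. The RB mean was above that of H2O2 alone in 37 members and below it in 36, and the median log2 fold change was 0.01, beside 0.02 over the 9986 genes tested. The median size of the change, whatever its sign, was 0.51 in members and 0.32 over all genes tested, and the median SE was 0.42 in members and 0.37 over all. In edgeR's quasi-likelihood test with Benjamini-Hochberg adjustment over all genes tested, 7 of 73 members differed, against 2.43% of all genes tested. Of these, 5 were lower with RB (1.69% of genes tested) and 2 were higher (0.741%). At an unadjusted p under 0.05 there were 19 members, and 1244 of the genes tested. All 3 RB libraries lay above all 3 of H2O2 alone for 8 members (9.11% of genes tested) and below them for 17 (9.88%).

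Genes of an aspartyl protease, a pectin methylesterase inhibitor type protein and a cytochrome P450 fell most with RB among the members. AT5G48430, the aspartyl protease gene (chr5:19627634-19629167, - strand, a single exon), had 14.7, 14.1 and 13.2 CPM with RB, against 128, 156 and 118 CPM in H2O2 alone at 2 h. The RB libraries were close together, all below every library of the time course, water included, as the plot of single libraries shows. The means were 13.96 ± 0.757 CPM with RB and 134 ± 19.3 CPM in H2O2 alone (SD, n = 3 each). The log2 fold change was -3.32 ± 0.44 (SE; adjusted p = 0.000538). AT4G25250, the pectin methylesterase inhibitor type gene (chr4:12934562-12935470, + strand, a single exon), had 6.66, 2.93 and 4.17 CPM with RB, against 25.2, 46.7 and 31.3 CPM in H2O2 alone at 2 h, without overlap. The means were 4.59 ± 1.90 CPM with RB and 34.4 ± 11.04 CPM in H2O2 alone (SD, n = 3 each). Its log2 fold change was -2.98 ± 0.42 (SE; adjusted p = 0.000656). CYP78A8 (AT1G01190, chr1:82984-84946, - strand, 2 exons), of a P450 family known from organ growth, had 3.999, 6.45 and 5.46 CPM with RB, against 23.2, 21.04 and 31.3 CPM in H2O2 alone at 2 h, again without overlap. The means were 5.30 ± 1.23 CPM with RB and 25.2 ± 5.42 CPM in H2O2 alone (SD, n = 3 each). Its log2 fold change was -2.27 ± 0.49 (SE; adjusted p = 0.015).

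Smaller falls with RB were found in a pair of abundant members. AT5G62350, the other inhibitor type gene (chr5:25037191-25038424, + strand, a single exon), had 233, 304 and 269.8 CPM with RB, against 643, 460.1 and 464 CPM in H2O2 alone at 2 h, without overlap, and the RB libraries overlapped those of water. The means were 269 ± 35.5 CPM with RB and 522 ± 104 CPM in H2O2 alone (SD, n = 3 each). Its log2 fold change was -0.99 ± 0.22 (SE; adjusted p = 0.0215). The abscisic acid exporter gene AT5G52050 (chr5:21138703-21140876, + strand, a single exon) had 193, 239.7 and 289 CPM with RB, against 449, 577 and 439 CPM in H2O2 alone at 2 h, also without overlap. The means were 240.3 ± 47.97 CPM with RB and 489 ± 76.9 CPM in H2O2 alone (SD, n = 3 each). Its log2 fold change was -1.08 ± 0.26 (SE; adjusted p = 0.0329).

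The 2 members that rose with RB were PMAT2 and APS3. PMAT2 (chr3:11527756-11529420, + strand, a single exon) had 31.3, 43.4 and 34.5 CPM with RB, against 8.14, 10.98 and 8.61 CPM in H2O2 alone at 2 h; its RB libraries were above every library of the time course. The means were 36.4 ± 6.25 CPM with RB and 9.24 ± 1.52 CPM in H2O2 alone (SD, n = 3 each). The log2 fold change was 1.95 ± 0.35 (SE; adjusted p = 0.00451). APS3 (chr4:8413263-8415650, - strand, 4 exons) had 206, 277 and 157 CPM with RB, against 151, 75.01 and 49.3 CPM in H2O2 alone at 2 h, and all RB libraries were above all of H2O2 alone, library c narrowly. The means were 214 ± 60.3 CPM with RB and 91.8 ± 52.9 CPM in H2O2 alone (SD, n = 3 each). Its log2 fold change was 1.19 ± 0.31 (SE; adjusted p = 0.0474). The gene AT4G14675 lies on the opposite strand of APS3, and the sources used here do not say whether the counting used strand. The other sulfur members had higher RB means without passing: SOT16 had 31.3, 32.8 and 8.83 CPM with RB, against 8.95, 4.57 and 5.48 CPM in H2O2 alone at 2 h (log2 1.80, adjusted p = 0.0804), and SDI1 had 5.33, 15.2 and 14.3 CPM with RB, against 7.73, 4.57 and 4.70 CPM in H2O2 alone at 2 h (log2 0.98, adjusted p = 0.43).

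AT5G48430, AT4G25250 and PMAT2 were called in all 21 alternative fits, which include leaving out each of the 15 libraries in turn. CYP78A8 and AT5G62350 were called in 18 each, and not without H2O2 2 h c (count of called members 3), H2O2 with RB a (3) or H2O2 with RB c (5). AT5G52050 was called in 15, and not after thinning or without H2O2 2 h b (5 members called) or c, or H2O2 with RB a, b (5) or c. APS3 was called in 10, and not under upper-quartile scaling, in the fit of the 6 libraries compared, or without H2O2 1 h a, H2O2 2 h b or c, H2O2 3 h b or c, H2O2 with RB a or b, or water a or c. The authors' deposited table calls 250 genes in this comparison, 8 of them members, and 6 of these are among the 7. The genes it calls have an adjusted p of at most 0.0492 and a fold change of at least 1.00 on the log2 scale in either direction. AT5G62350, the one of the 7 without the authors' call, stands in the authors' deposited table with an adjusted p of 0.00216 and a log2 fold change of 0.99 for H2O2 alone over H2O2 with RB, while the calls of the recomputed test needed no minimum fold change. DESeq2 called 11 members, the 7 and RAS1, AT1G54010, AT4G12510 and SOT16. The share of all genes called in the alternative fits is not given here.

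**Figure D5:**
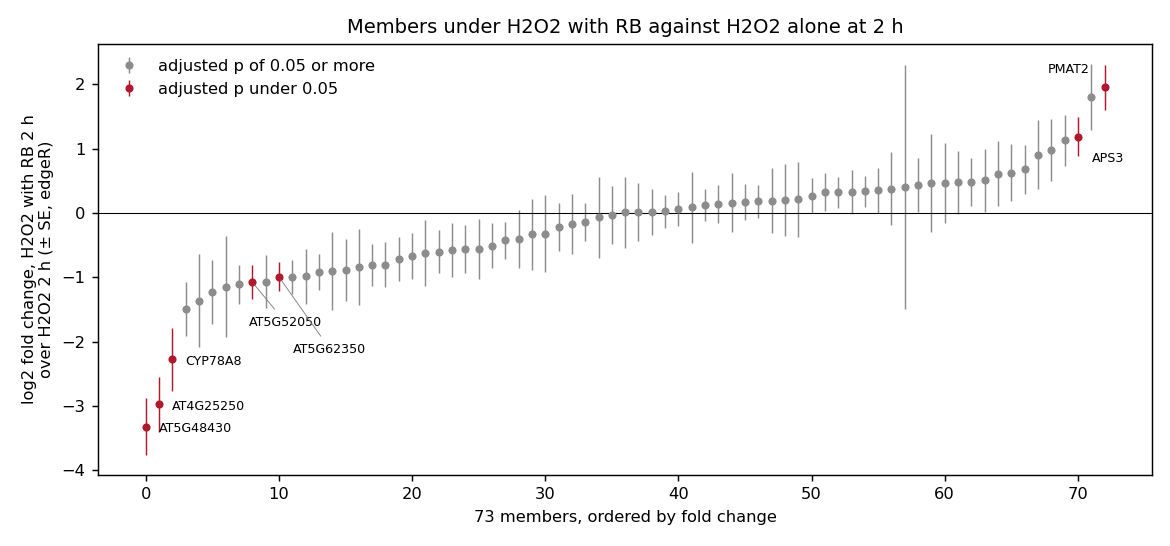
Log2 fold change of H2O2 with RB over H2O2 alone at 2 h for each of the 73 members in order of size, with its SE from edgeR (whiskers); red points have an adjusted p under 0.05. The 5 red points below 0 run from -3.32 to -0.99, the 2 above 0 are PMAT2 at 1.95 and APS3 at 1.19, and the widest whisker belongs to AT3G43850.

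Several members lay close to the threshold without passing. RAS1 had 22.7, 22.9 and 20.1 CPM with RB, against 36.6, 34.8 and 54.01 CPM in H2O2 alone at 2 h, without overlap (log2 -0.99, adjusted p = 0.0512). The lipase-like gene AT1G54010 had 60.6, 48.1 and 51.03 CPM with RB, against 106, 124 and 103 CPM in H2O2 alone at 2 h, without overlap (log2 -1.11, adjusted p = 0.061), and is called in the authors' deposited table. The lipid-transfer type gene AT4G12510 had 21.3, 19.3 and 13.5 CPM with RB, against 38.7, 60.4 and 45.4 CPM in H2O2 alone at 2 h, without overlap (log2 -1.49, adjusted p = 0.07), and is likewise called in the authors' deposited table. RD29A had 172, 141 and 94.4 CPM with RB, against 265, 282 and 196 CPM in H2O2 alone at 2 h, also without overlap (log2 -0.91, adjusted p = 0.106). HVA22D, of the same group, had 451, 528 and 370.4 CPM with RB, against 435, 399.7 and 421 CPM in H2O2 alone at 2 h, with overlap (log2 0.06, adjusted p = 0.97). Whether RD29A and HVA22D differ in this was not tested.

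By function, the wall group had 9 log2 fold changes of RB over H2O2 alone below 0 and 4 above, with 2 called lower. The redox group had 4 above and 1 below, with 0 called. Signalling and protein turnover had 5 below and 3 above with 0 called, and transport 4 each way with 1 called lower. Over all genes tested, 1.69% were called lower and 0.741% higher. The groups are small and were formed after the members were known, and genes of a group are not replicates of a treatment. RHA3B had 357, 332 and 359 CPM with RB, against 408, 401 and 197 CPM in H2O2 alone at 2 h, and the RB libraries lay within the range of H2O2 alone. ACS6 ranged from 6.26 to 48.7 CPM among the RB libraries and PYK10 from 12.8 to 91.3 CPM, and in both genes library c, which also held the highest shoot marker level, was lowest; the part of tissue makeup in this was not tested. Compared with 1 h, the RB mean was above the 1 h mean in 14 members, and it was below the water mean in 17.

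In gene structure, members had a median of 3 exons, a longest mRNA of 1641 bases and a protein of 338 residues. The other 14103 protein-coding genes of the table had 4 exons, 1729 bases and 370 residues. The other risers had 2 exons, 1450.0 bases and 288 residues. Single-exon genes were 13 of 73 members (17.8%), 39.6% of the other risers and 15.6% of other table genes. Chromosomes 1 to 5 held 19, 5, 8, 20 and 21 members, and no pair of members were neighbours in the annotation. Another annotated gene overlapped 15 members, on the opposite strand in 14 and on the same strand in 3.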

How the data were processed

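Root libraries of 5 treatments, 3 each, were grouped by sample titles and treatment fields. The authors' deposited table holds raw counts per gene, which were used, and log2 fold changes, p-values and yes or no calls by the authors for each comparison, of which those of H2O2 with RB against H2O2 were set beside the recomputed ones. STAR 2.4.2a, HTSeq, DESeq2, bcl2fastq and cutadapt are listed, without role or order, per the submitters' processing notes. The genome build, the annotation and the use of molecular identifiers: not given in the sources used here. Counting errors therefore cover counts as deposited. The other 30 per-sample columns were not used.

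The members, lists and functional groups were chosen with earlier results of these data known. CPM used column sums. The fit of the counts used edgeR 4.0.16 (R 4.3.3; filterByExpr by group, 9986 genes kept, all 73 members among them; TMM; glmQLFit, robust, a term per group, 15 libraries) and two-sided tests by glmQLFTest, adjusted after Benjamini-Hochberg, with calls under 0.05. The model was tested on simulated data, and the outcome is not reported here. Alternatives were DESeq2 1.42.0, upper-quartile scaling, no filter, 6 libraries, the replicate block, thinning and leaving out each library. Gene positions and sequence came from RefSeq TAIR10.1, in which all 73 members matched by locus tag; near-identical mRNAs were sought with BLAST+ 2.17.0. Total counts of 689372 to 6231140 limit the precision of low genes. Genes named were the 10 highest at 1 h, the 10 largest rises and the 10 lowest returns, list members, members called with RB and those at the edges of the rule; further members, such as those near the test's threshold, were chosen after their values were seen. One promoter sequence is not reported here.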

Additional observations from a re-analysis of the deposited data

How the results depend on the processing

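The number of genes found by the rule was 73 as reported, 89 with 1 CPM added, 51 with 5 CPM added, 80 with TMM scaling, 51 with a minimum of 20 CPM and 85 with libraries thinned to equal depth (58 of the 73). Leaving out 1 library at a time gave 63 to 113 genes, the highest without H2O2 1 h c, and 35 members were kept in all 9 such settings while 10 were lost in at least 3. The median L of 3 h over water, 0.20, was 0.37 with TMM and 0.030 to 0.30 when 1 library was left out, lowest without water a. The median L of 2 h over 1 h was -0.75 to -0.58 and that of RB over H2O2 at 2 h -0.19 to 0.12 without 1 library.

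Members called with RB numbered 7 as reported, 11 with DESeq2, 8 without the filter, 8 in the fit of 6 libraries, 6 after thinning and 3 to 10 when 1 library was left out, with 3 without H2O2 2 h c and 3 without H2O2 with RB a. The 2.43% of all genes tested that were called belongs to the fit as reported. Shares of all genes called under the alternatives are not given here. A shift of the members alone thus cannot be told from a general one. The cause of these shifts was not tested. The replicate block, in which the letters a, b and c were a term, called 7 members, the same 7. Residuals of same-letter libraries of the RB comparison correlated at -0.20, -0.07 and -0.06, and those of all 30 same-letter pairs at -0.44 to 0.64, so the letters were not taken as pairs. The 12 members with the lowest adjusted p in the RB comparison were run under its alternatives and kept their direction, which this choice favours. The median of RB over H2O2 lay on both sides of 0. Members with a 3 h mean below water numbered 28 as reported and 19 with TMM. Directions of other single members were not run under the remaining alternatives.

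Replicates are pools of seedlings, and the p-values set a difference between treatments against the spread between these pools, estimated from all 15 libraries. A lower level at 2 h or 3 h than at 1 h is in part built in, since high 1 h values chose the members, and 42 members had under 30 CPM at 1 h, where single counts weigh most in the shallow library c.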
